A study of Mus musculus with 2 samples.

Results

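The 10 genes described here control the balance between self-renewal and differentiation in the cells that found sperm production: Nanos2, Zbtb16, Gfra1, Ret, Id4, Etv5, Sohlh1, Sohlh2, Dmrt1 and Stra8. They are 10 of 21775 protein-coding genes whose positions on mouse build mm10 were used. Each was taken by name, and every 5hmC peak that overlapped its annotated span or lay within 50 kb of it was collected, which gave 158 of the 108395 peaks of the library. The library is 5-hydroxymethylcytosine (5hmC) DNA captured by 5hmC-Seal from prospermatogonia of wild-type (WT) mouse embryos at E17.5; these are male germ cells before birth. In 5hmC-Seal a biotin tag is put on 5hmC through a glucose, and the tagged fragments are pulled down on streptavidin. The cells were 30000 in number and pooled from several embryos, 50 ng of sheared DNA was used, and 1 library before capture came from the same batch. That second library had no file used here. There is thus 1 captured library without a replicate, its depth is unknown, and no comparison could be tested across samples. The file holds no expression values, so the cell type in the labels could not be checked against markers. Intervals below are exact 95% intervals that cover counting error only.

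Prospermatogonia are arrested germ cells that later become spermatogonia, and some of these keep the stem cell state while others differentiate and enter meiosis. GDNF from the somatic niche acts on the receptor pair GFRA1 and RET to maintain the stem cells, whereas retinoic acid drives differentiation through genes such as Stra8. The mark 5hmC is made from 5-methylcytosine by TET enzymes, and in many tissues it lies in gene bodies and is scarce at CpG-rich promoters. A captured peak shows where 5hmC was enriched and does not measure the expression of a gene.

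Peaks overlapped the span of 8 of the 10 genes, against 61.6% of all protein-coding genes, and Nanos2 and Id4 had none inside. All 7 members of 5 kb or longer had a larger share of the span covered than the median gene of their length class. A peak lay within 1 kb of a gene end in 6 of the 10 genes (Gfra1, Etv5, Sohlh1, Sohlh2, Dmrt1 and Stra8), against 26.6% of all protein-coding genes. None of the 8 annotated promoter windows of the 7 members with one overlapped a peak, where 4.01% of all such windows did. At least 1 peak within 50 kb was found for all 10 members, against 93.9% of all protein-coding genes. These counts rest on weak calls: at a −log10 q of at least 3, gene-end peaks were left at 1 member and span peaks at 5, against 4% and 22.6% of all protein-coding genes, and a gene-end window of 250 bp left 2 members, against 13.1%.

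Upstream sequences of 4 members are shown because they span the range of CpG content in the set and bracket the nearest peaks. They are the 250 bases before the transcription start, 5′ to 3′ on the strand of the gene, from RefSeq on GRCm38.p6, the same build as mm10. Capitals mark CG, the CpG at which 5hmC is mainly found, in the sequences of Nanos2 (plus strand, chr7:18987274-18987523), Id4 (plus strand, chr13:48260866-48261115) and Stra8 (plus strand, chr6:34920698-34920947). In the sequence of Sohlh1 (minus strand, chr2:25847249-25847498) they mark CACGTG, an E-box of the kind bound by basic helix-loop-helix proteins.
Nanos2: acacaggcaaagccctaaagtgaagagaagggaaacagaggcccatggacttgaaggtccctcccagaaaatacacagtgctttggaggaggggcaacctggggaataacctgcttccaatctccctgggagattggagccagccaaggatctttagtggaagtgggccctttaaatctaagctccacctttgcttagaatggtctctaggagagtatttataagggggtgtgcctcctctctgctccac
Id4: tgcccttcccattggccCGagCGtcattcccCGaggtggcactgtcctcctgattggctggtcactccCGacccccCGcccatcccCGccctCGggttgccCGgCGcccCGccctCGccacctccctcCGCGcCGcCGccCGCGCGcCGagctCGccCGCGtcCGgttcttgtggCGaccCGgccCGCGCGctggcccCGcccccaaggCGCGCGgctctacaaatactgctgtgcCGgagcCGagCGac
Stra8: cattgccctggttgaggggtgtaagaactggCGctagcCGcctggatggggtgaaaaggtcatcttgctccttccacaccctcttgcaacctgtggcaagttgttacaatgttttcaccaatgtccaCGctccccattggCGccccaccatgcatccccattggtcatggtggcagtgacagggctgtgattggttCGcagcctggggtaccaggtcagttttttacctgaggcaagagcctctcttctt
Sohlh1: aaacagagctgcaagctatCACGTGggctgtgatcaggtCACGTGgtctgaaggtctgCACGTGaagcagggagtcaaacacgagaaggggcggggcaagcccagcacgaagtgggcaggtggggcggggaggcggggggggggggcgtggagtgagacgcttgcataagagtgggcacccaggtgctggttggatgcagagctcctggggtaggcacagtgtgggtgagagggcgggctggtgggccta

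CpG content ranged from none to dense among these promoters, and no window carried a peak at either extreme. The Nanos2 sequence held 0 CpG, as did 6.61% of 21254 promoters of protein-coding genes, and the Id4 sequence held 35, more than 96.2% of them. Stra8 had 5 CpG, Gfra1 10, Sohlh1 11 and Sohlh2 14, and the Etv5 windows had 27 and 18, beside a median of 10 over all promoters. Over all promoters, overlap with a peak was found at 0.673% (0.519 to 0.859) of those with an observed over expected CpG ratio above 0.6, the class of Id4 and of both Etv5 windows. It was found at 6.38% (5.70 to 7.12) of those between 0.3 and 0.6, the class of Gfra1, Sohlh1 and Sohlh2, and at 6.90% (6.31 to 7.51) of those at or below 0.3, the class of Nanos2 and Stra8. With shares this low, 0 of 8 windows is no departure from the background. The palindrome CACGTG, which contains a CpG and reads alike on both strands, occurred 3 times upstream of Sohlh1 and in none of the other 7 windows. It was searched after that sequence had been seen, and 6.63% of all promoters held it at least once and 16 of 21254 at least 3 times. A match of letters is not evidence of binding.

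**Figure D1:**
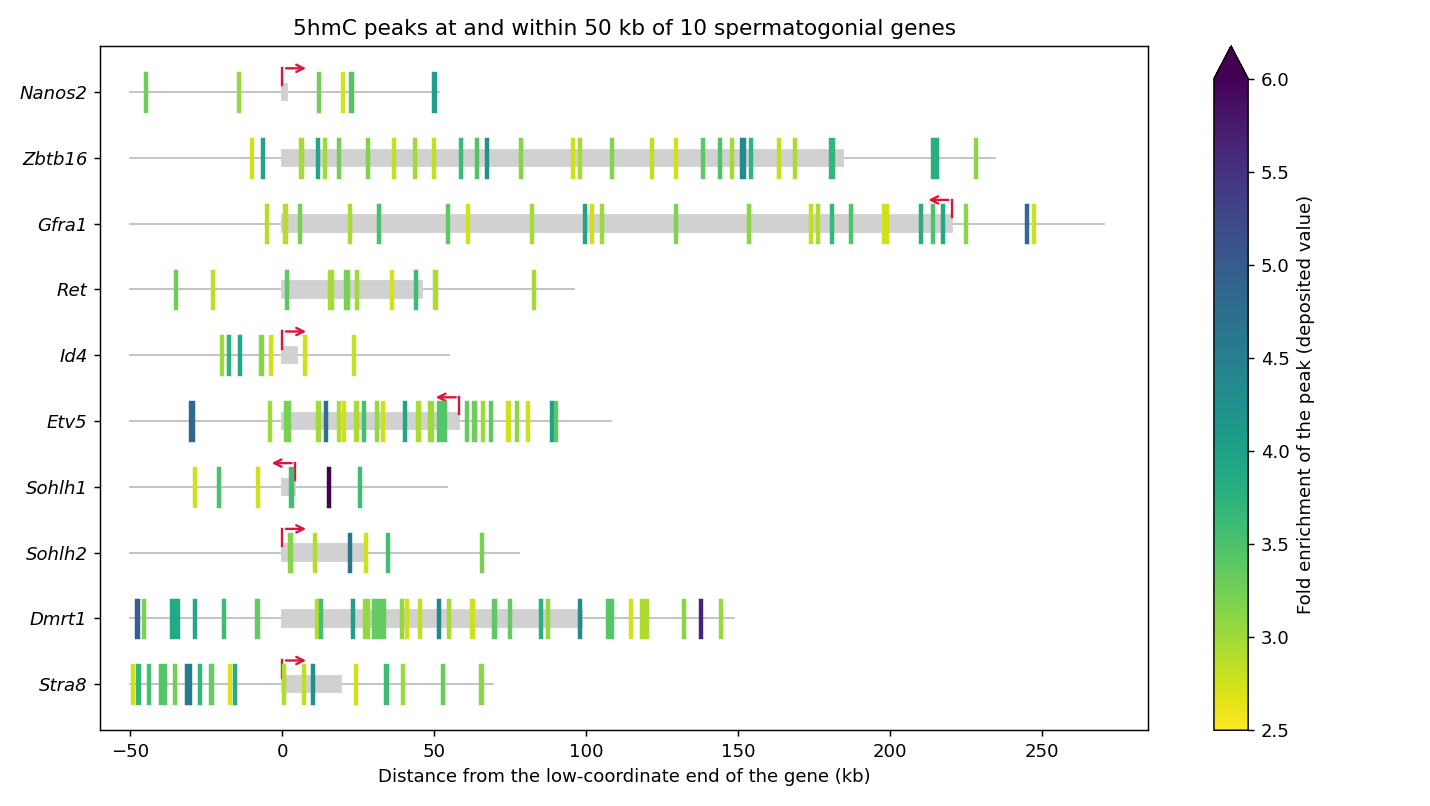
Positions of all 158 peaks at the 10 genes, in kb from the low-coordinate end of each gene; grey boxes are gene spans, grey lines the 50 kb on each side, and red arrows the start-side end of the span with the direction of transcription for the 7 genes with an annotated strand. Coloured bars are peaks, drawn at least 1 kb wide, with the deposited fold enrichment as colour; the darkest bar, at fold 7.89, lies upstream of Sohlh1, and the Nanos2 and Id4 boxes hold no bar.

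The map of peaks shows how unevenly the neighbourhoods were filled. Together, the spans and their 50 kb on each side made up 1.67 Mb and held 94.9 peaks per Mb (80.7 to 111), against an autosomal median of 44.2, from 35.1 to 57.1 on single autosomes. The median neighbourhood of a protein-coding gene, cut in the same way, held 59.2. That is a median over genes, whereas 94.9 pools the members, so that long loci weigh most in it. Taken singly, the members ran from 46.9 (Sohlh2) to 152 (Etv5), and Sohlh2, Sohlh1 and Nanos2 lay below 59.2. With strict calls the members no longer stood above the autosomes. At a −log10 q of at least 3 they held 7.81 peaks per Mb (4.16 to 13.3). That interval contains both the autosomal median of 10.4 and the gene neighbourhood median of 9.16. At 5 they held 1.20 (0.145 to 4.34), below the autosomal median of 5.20. The median gene neighbourhood held 0 at that threshold. Etv5 (152 peaks per Mb, interval 97.2 to 226), Stra8 (151 per Mb, 89.5 to 239) and Dmrt1 (141 per Mb, 93.6 to 204) were the densest. Sohlh2 (46.9 per Mb, 17.2 to 102), Sohlh1 (57.6 per Mb, 21.1 to 125) and Nanos2 (59.1 per Mb, 21.7 to 129) were the sparsest. For 5 members (Zbtb16, Gfra1, Etv5, Dmrt1 and Stra8) the whole interval lay above the autosomal median, and the intervals of the other 5 contained it. The interval of Gfra1 (48.0 to 111) contained the gene neighbourhood median of 59.2, whereas those of Zbtb16, Etv5, Dmrt1 and Stra8 lay above it. Most intervals overlap each other, so the order within the set is loose.

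The peaks near the 10 genes were numerous but low in fold. Fold enrichment is the authors' value for each peak, the captured signal over the background their caller assumed, and q is the caller's error rate after correction. The 158 peaks had a median fold of 3.17, against 3.35 over all peaks and 3.28 over the 85622 peaks within 50 kb of any protein-coding gene. Their median width was 584.5 bp, against 636 bp over all peaks. Only 13 of the 158 (8.23%, 4.45 to 13.7) reached a −log10 q of 3, against 24.2% of all peaks and 19.4% of peaks within 50 kb of a protein-coding gene. At a −log10 q of 5 the count was 2 (1.27%, 0.154 to 4.50), against 11.9% of all peaks and 8.65% of those near protein-coding genes. Inside or at the ends of the members, 7 of 88 peaks reached a −log10 q of 3 (7.95%, 3.26 to 15.7), against 14.0% of the 57523 peaks in the spans of protein-coding genes, and 0 reached 5, against 4.83%. The commonest −log10 q in the list, 1.02, was shared by 19 of the 158 peaks (12.0%) and by 7.22% of all peaks. Neighbouring peaks are not independent of one another, and these differences were not tested.

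**Figure D2:**
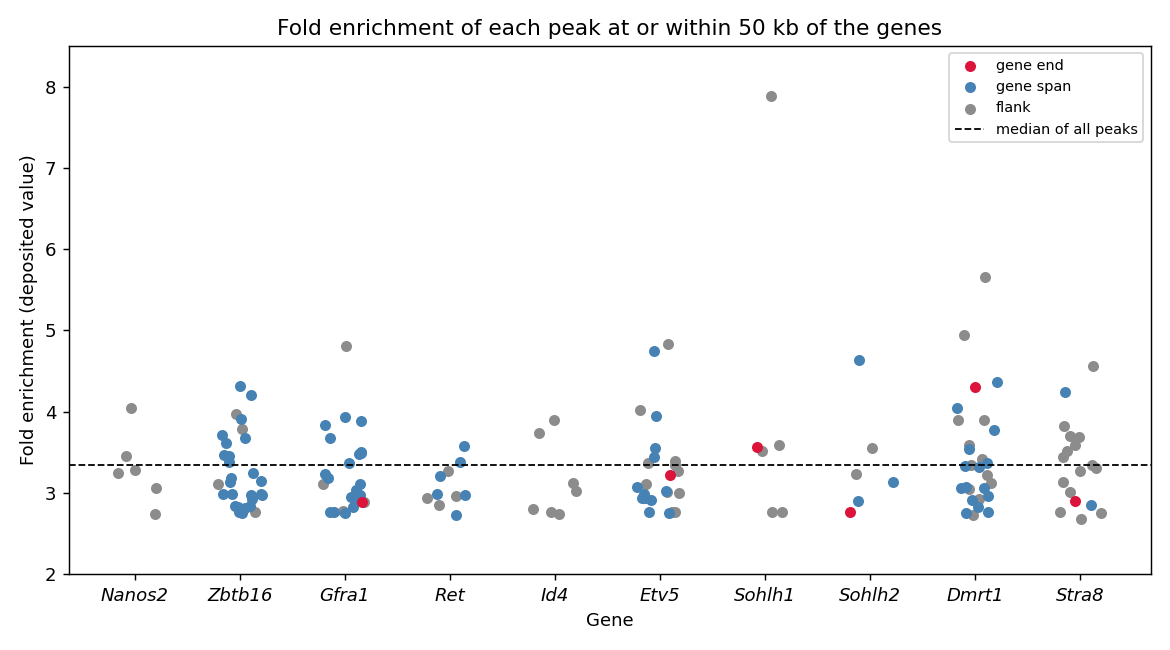
Deposited fold enrichment of each of the 158 peaks by gene, with peaks at gene ends in red, other peaks in the gene span in blue and flanking peaks in grey; the dashed line is the median of all 108395 peaks, 3.35. Points are spread sideways for legibility; 142 of the 158 lie at or below fold 4, and the highest, 7.89, is a flanking peak of Sohlh1.

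The receptors of the niche signal both had peaks along the gene, which is common at their lengths. A span peak was found in 91.2% of protein-coding genes of 60 kb or more, the class of Gfra1. It was found in 78.2% of those of 20 to 60 kb, the class of Ret. Gfra1 (gene ID 14585, minus strand, chr19:58235581-58455946) encodes the GDNF-binding co-receptor and is the longest member, at 220 kb. Its span overlapped 20 peaks, 9.08 per 100 kb, which covered 5.39% of it. The median for the 4157 genes of 60 kb or more was 3.05%, and 65.5% of them had a lower share than Gfra1. The peaks inside ran from fold 2.76 to 3.93, and the longest stretch of the gene without one was 24.1 kb. The nearest peaks to the transcription start lay 2.89 kb downstream and 4.39 kb upstream of it, leaving 7.27 kb free. That stretch was shorter than the median of 24.8 kb for promoters of its CpG class, a ratio between 0.3 and 0.6. Its gene-end peak was at the far end, chr19:58235817-58237018, with fold 2.88 and a −log10 q of 1.18. The strongest peak of the locus was in the upstream flank, 23.9 kb from the span, at chr19:58479871-58480341 with fold 4.80 and a −log10 q of 4.21.

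Ret (gene ID 19713, chr6:118151748-118197744) encodes the tyrosine kinase that signals for GFRA1. Its 46.0 kb span overlapped 6 peaks, 13.0 per 100 kb, and 11.2% of it was covered, against a median of 4.28% for the 5851 genes of 20 to 60 kb. Of those genes 76.9% had a lower share. Folds inside Ret were between 2.73 and 3.58, and no peak of its neighbourhood passed fold 4 or a −log10 q of 3. The peak at its low-coordinate end began 1005 bp from that end and so fell just outside the 1 kb window. Another peak began 3.64 kb beyond the high-coordinate end. Ret, Zbtb16 and Dmrt1 have no entry in the promoter table, so their ends are given by coordinate and not as start and far end.

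Among the transcription factors of the stem cell state, Zbtb16 and Etv5 had many peaks inside, few of which reached a −log10 q of 3. Zbtb16 (gene ID 235320, chr9:48651797-48836225) encodes PLZF, a zinc-finger repressor needed for stem cell maintenance. Its span overlapped 25 peaks, the most of any member, and had 9.60% of its 184 kb covered, a larger share than in 83.4% of genes of 60 kb or more. They were spread along the whole gene, 13.6 per 100 kb with no gap longer than 16.2 kb. Both ends were free, with the nearest peaks 5.35 kb and 2.79 kb away. The strongest was at chr9:48802549-48804172, with fold 4.32 and a −log10 q of 3.43. Only 4 peaks lay in its flanks.

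Etv5 (gene ID 104156, minus strand, chr16:22381313-22439570) encodes an ETS factor that acts downstream of GDNF and FGF signals. Its 13 peaks, 22.3 per 100 kb, took up 22.8% of the span, a larger share than in 93.7% of genes of 20 to 60 kb. At a −log10 q of at least 3 the share was 0.446%, below that of Sohlh2 (2.58%), Stra8 (1.32%), Dmrt1 (1.27%) and Zbtb16 (1.12%), and it was 0 in the other 5 members. The widest of them, 2769 bp at fold 3.45, was the first within the gene, at chr16:22432347-22435115. Around the start site itself 6.13 kb were free of peaks, from 1.68 kb upstream to 4.46 kb downstream. The median free stretch was 22.7 kb for promoters of its CpG class, a ratio above 0.6, so this gap was short. Upstream of that gap the peaks went on, with 9 in the upstream flank against 2 in the downstream one. A peak of 1984 bp with fold 3.22 lay near the far end, 601 bp inside the gene, at chr16:22381914-22383897. Its strongest peaks were a 260 bp peak inside the gene, with fold 4.74 and a −log10 q of 4.20, and a 1632 bp peak in the downstream flank, 29.2 kb away, with fold 4.83 and a −log10 q of 4.35.

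Id4 and Nanos2 were the genes without a peak inside, and both are short. Id4 (gene ID 15904, plus strand, chr13:48261116-48266028) encodes a helix-loop-helix inhibitor that binds no DNA itself and marks spermatogonia with high stem cell potential. All of its 7 peaks were flanking, 5 upstream and 2 downstream, with folds from 2.75 to 3.90. The 5 upstream peaks all lay in A330033J07Rik, a long non-coding RNA gene whose annotated span reaches into Id4. The nearest peaks were 3.90 kb upstream of the start site and 1.95 kb beyond the far end. Nanos2 (gene ID 378430, plus strand, chr7:18987524-18988962) encodes an RNA-binding protein that sets the male fate of foetal germ cells and holds back meiosis. No peak was called from 14.3 kb upstream of its start site to 11.5 kb downstream, a free stretch of 25.8 kb. The median stretch was 28.4 kb around the start sites of all promoters. It was 45.6 kb for those with a CpG ratio at or below 0.3, the class of Nanos2. Of its 6 flanking peaks, the strongest reached fold 4.05 at 47.7 kb, within the neighbouring gene Sympk. An empty span is the rule at this length: of the 4977 protein-coding genes under 5 kb, 18.7% overlapped a peak and 20.4% had one at a gene end.

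**Figure D3:**
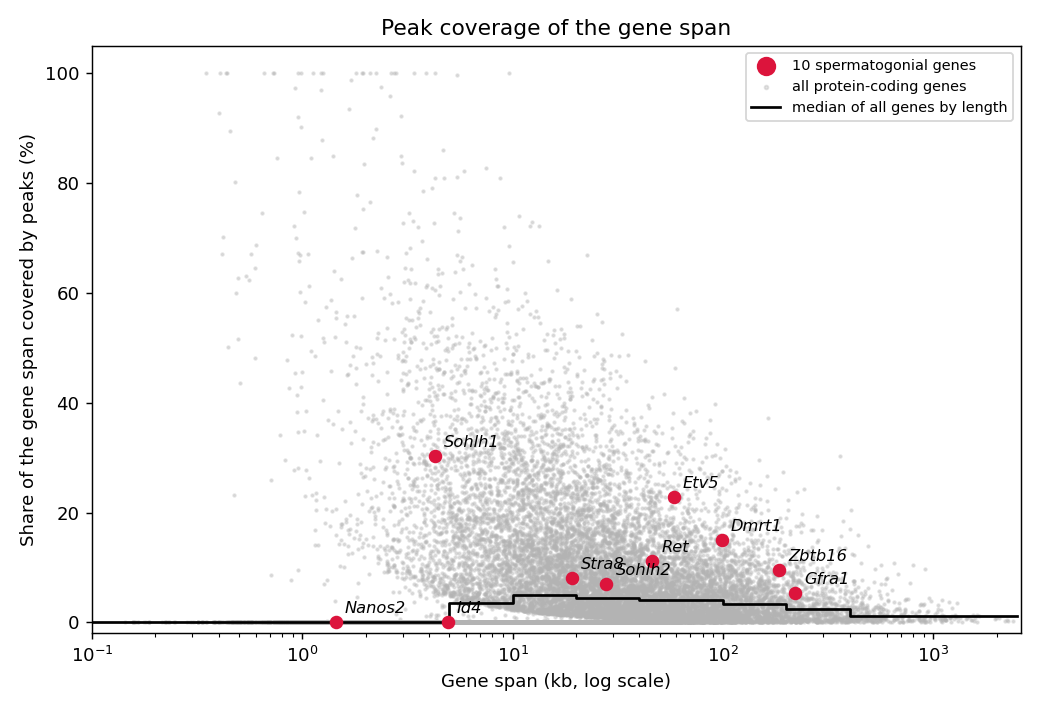
Share of the gene span covered by peaks, in percent, against gene span in kb on a log scale, for the 10 genes in red and all 21775 protein-coding genes in grey; the black line is the median of all genes in steps of length. Sohlh1 at 30.2%, Etv5 at 22.8% and Dmrt1 at 15.1% stand highest of the 10, and Nanos2 and Id4 lie at 0.

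Differentiation factors with a basic helix-loop-helix domain, Sohlh1 and Sohlh2, differed from each other in where their peaks were. Both proteins are needed for spermatogonia to differentiate. Sohlh1 (gene ID 227631, minus strand, chr2:25842995-25847248) had 1 peak inside, chr2:25845334-25846618, with fold 3.56 and a −log10 q of 2.26. It began 630 bp after the start site and was 1285 bp wide. By itself it covered 30.2% of the 4.25 kb span, a larger share than in 92.7% of genes under 5 kb. Most of those had no coverage, as no peak overlapped the span in 81.3% of genes under 5 kb. The strongest peak of all 10 loci lay 10.3 kb upstream of Sohlh1, at chr2:25857513-25858308. Its fold of 7.89 exceeded that of 98.6% of all peaks, and its −log10 q was 10.9. It was outside any annotated gene, 5.48 kb from Kcnt1, a potassium channel gene, so it cannot be assigned to Sohlh1 by position alone. No other peak was called between it and the start site.

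Sohlh2 (gene ID 74434, plus strand, chr3:55182044-55209957) overlapped 4 peaks, which covered 6.94% of its span, a larger share than in 63.3% of genes of 20 to 60 kb. The first began 2003 bp after the start site. The strongest, chr3:55203752-55204471, lay in the last part of the gene, with fold 4.64 and a −log10 q of 3.88. Its gene-end peak was at the far end, chr3:55209020-55209311, and had fold 2.77 and a −log10 q of 1.02. On the upstream side no peak was called within 50 kb; the nearest was 53.6 kb from the start site, past the neighbouring gene Ccdc169.

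Dmrt1 (gene ID 50796, chr19:25505618-25604328) encodes a DM-domain factor that keeps spermatogonia out of meiosis. Its span overlapped 16 peaks, 16.2 per 100 kb, and 15.1% of it was covered, a larger share than in 93.2% of genes of 60 kb or more. The widest peak of the 10 loci was here, 4209 bp at fold 3.34, at chr19:25535180-25539388. No peak lay within 7.56 kb of the low-coordinate end, and the first inside the gene was 10.6 kb from it. The gene-end peak, chr19:25602747-25603461, was 867 bp inside the high-coordinate end. With fold 4.31 and a −log10 q of 3.30 it was the strongest gene-end peak of the set. Each flank held 6 peaks, and 3 of those on the high-coordinate side were in Dmrt3, a gene of the same family. The strongest of the locus was 38.3 kb beyond Dmrt1 and 18.7 kb past Dmrt3, at chr19:25642589-25643824, with fold 5.66 and a −log10 q of 6.12. Besides the one upstream of Sohlh1, it was the only peak of the 158 above a −log10 q of 5.

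Stra8 (gene ID 20899, plus strand, chr6:34920163-34939344) is induced by retinoic acid and is needed for entry into meiosis. Its annotated span overlapped 3 peaks, which covered 8.00% of it, a larger share than in 60.5% of the 6790 genes of 5 to 20 kb; the median there was 4.29%. The gene-end peak, chr6:34920027-34920306, was 280 bp wide with a −log10 q of 1.18, and it straddled the first base of the span. The start site of the promoter table lies further in, so that the peak ended 642 bp upstream of it and 392 bp before the promoter window. The strongest peak inside the gene, of fold 4.24, was 8.48 kb downstream of the start site. Flanking peaks made up 15 of the 18 at this locus. Of these, 7 lay in Wdr91, upstream of Stra8, with folds up to 4.56, and 4 in Slc23a4, downstream.

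**Figure D4:**
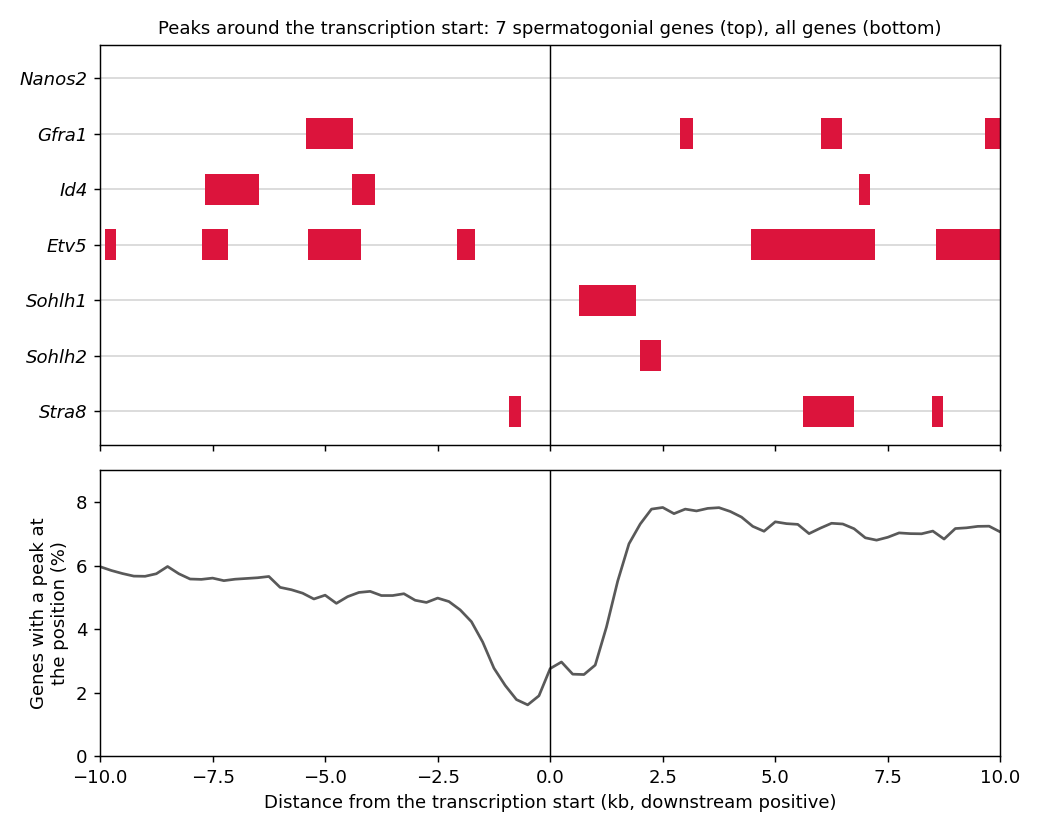
Top, peaks (red bars) within 10 kb of the transcription start of the 7 genes with an annotated start, 1 line per gene; bottom, percent of 17485 protein-coding genes with a peak at each position, in steps of 0.25 kb. Distances are in kb with downstream positive. No bar touches the start in the top panel, and the lower curve has its minimum, 1.62%, at 0.5 kb upstream and its maximum, 7.84%, at 2.5 kb downstream.

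No peak touched the annotated start of any of the 7 genes. The closest peaks were those of Sohlh1, 630 bp downstream, and Stra8, 642 bp upstream, and in the other 5 genes the nearest was between 1.68 kb (Etv5) and 11.5 kb (Nanos2) away. A peak within 1 kb of the start site was thus found in 2 of 7 genes, against 8.23% of the 17491 protein-coding genes with an annotated start. Peaks within 1 kb of the far end were found in 3 of 7 (Gfra1, Etv5 and Sohlh2), against 21.2%. Over all genes, the share with a peak at a given position was lowest, 1.62%, at 0.5 kb upstream of the start and highest, 7.84%, at 2.5 kb downstream, as the plot of start sites shows. A set of 7 genes is too few to show such a dip or its absence.

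Flanks held 70 of the 158 peaks, and about as many lay in neighbouring genes (34) as outside any other gene (36). Their median fold was 3.27, against 3.09 for the 82 peaks inside the gene spans and 3.06 for the 6 at gene ends. For the 7 genes with a strand, 31 flanking peaks were upstream and 19 downstream. Stra8 and Etv5 gave 19 of those upstream and 7 of those downstream, and the other 5 genes together 12 and 12. At the edge of the 50 kb rule, the farthest peak inside was 49.4 kb from Stra8, with fold 2.77, and the closest one outside was 51.1 kb from Stra8, with fold 2.82.

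A wider list of 35 genes of the same cells and their niche was described in the same way. A gene-end peak was found at 14 of the 35, beside 26.6% of all protein-coding genes, and a peak in the span at 27, beside 61.6%. At a −log10 q of at least 3 a gene-end peak was left at 2 of the 35, beside 4% of all protein-coding genes. The median share covered was 8.15%, beside 8.80% for the 10 genes and 2.25% for all protein-coding genes. Among 15 other genes of the stem cell state, 4 had a gene-end peak, with the highest folds at Sall4 (4.53), a zinc-finger factor of pluripotent and germ cells, Neurog3 (3.28), a marker of early progenitors, and Utf1 (3.15), a chromatin protein of early spermatogonia. Of 7 differentiation genes, Uchl1 (4.33), a ubiquitin hydrolase, and Kit (3.46), the receptor that marks differentiating spermatogonia, had one. Both groups were close to the share among all genes. The largest shares of the span covered were 58.8% in Sall4, 51.8% in Utf1 and 32.5% in Kit, named after their values were seen.

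Of 7 genes of surface proteins, 5 had a gene-end peak, beside 26.6% of all protein-coding genes, with folds of at most 3.39. The highest were at the tetraspanin gene Cd9 (3.39), the adhesion gene Epcam (3.38) and the cadherin gene Cdh1 (2.98). Of 6 genes for niche ligands and a chemokine receptor, 3 had one: Cxcr4 (3.77), the receptor for the ligand CXCL12, Fgf2 (3.04) and Gdnf (2.94). Gdnf, the ligand gene of the GFRA1 and RET pair, and Gfra1 each had a weak gene-end peak, whereas Ret had none. A link between these genes was not tested. Sox3, on the X chromosome, was the only gene of the wider list with no peak within 50 kb.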

How the data were processed

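The data are 1 list of broad peaks from the captured 5hmC library. The submitters' processing notes list MACS2 2.1.0 among their tools, beside Bowtie2 2.5.0 and Trim Galore, and name build mm10; which step each tool served, the settings of the caller and whether it used a control were not stated there. For each peak the authors deposited a score, a fold enrichment, which is a ratio, and a −log10 p and −log10 q, all set by their caller. The list reaches down to a −log10 q of 1.01 and so holds weak calls.

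Gene spans came from RefSeq on GRCm38.p6, and genes starting in the opening 3 Mb of a chromosome other than Y were left out. Starts and strands came from the RefSeq promoter table (250 bases before to 50 after the start), which matched 7 of the 10 genes. A peak counted where it shared at least 1 bp with a span, with the 1 kb on each side of a gene end, or with the 50 kb flanks, and was placed in gene end, else span, else flank. Length classes were under 5 kb, 5 to 20 kb, 20 to 60 kb and 60 kb or more. Poisson and Clopper-Pearson 95% intervals are exact and cover counting error only; they treat peaks as independent. With 1 library no test was run. The overlap code was tested on simulated data (Python 3.11.15, pandas 2.3.3, numpy 2.4.6, scipy 1.17.1, matplotlib 3.10.9). Alternatives were stricter q, merged peaks, midpoints, other windows and other flanks.

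The members and lists were chosen with earlier results of these data known. The text names all 10 members, their gene-end peaks, the strongest peak inside and in the flanks of each where it bears on the account, and up to 3 genes of each wider group by gene-end fold; the coverage of Sall4, Utf1 and Kit and the absence of peaks at Sox3 were singled out after their values were seen.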

Additional observations from a re-analysis of the deposited data

How the results depend on the processing

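The threshold of the caller set most values. At a −log10 q of at least 3, gene-end peaks were left at 1 of the 10 genes (Dmrt1) and at 2 of the 35 wider genes. Span peaks were left at 5 genes, and the median span covered was 0.223%. The members kept 13 peaks or 7.81 per Mb (4.16 to 13.3). That interval contains the autosomal median of 10.4 and the gene neighbourhood median of 9.16. Among all protein-coding genes 4% then had a gene-end peak and 22.6% a span peak, so their median share of the span covered was 0. At a −log10 q of at least 5, gene ends, spans and the median were at 0, and gene ends also at 0 in the wider list. Among all protein-coding genes 1.27% then had a gene-end peak and 8.83% a span peak. The members kept 2 peaks or 1.20 per Mb, against an autosomal median of 5.20 and a gene neighbourhood median of 0. Gene-end peaks were found at 3 of the 10 genes by peak midpoint, a setting for which no share over all genes was taken. They were found at 2 with a 250 bp window (13.1% of all genes) and at 2 of 7 at the start site alone (8.23%). The wider list gave 9 genes with the 250 bp window and 28 with a 5 kb window. Flanks of 20 kb raised the density to 115 peaks per Mb, but the neighbourhoods of all genes were not cut that way for comparison. Merging peaks within 1 kb, and flanks of 100 kb, moved no count by more than 1.5 times; with a 5 kb window 9 of the 10 genes had a gene-end peak, against 61.7% of all genes. The share of the span covered moved by over 1.5 times in 8 of the 10 genes at either threshold, and was 0 in the other 2 throughout. The settings for the wider list were chosen after seeing the data. The cause of these shifts was not tested. No paired analysis was possible because there is 1 captured library. Unknown depth limits every statement that no peak was called.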
